A study of Mus musculus with 4 samples.

Results

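The class I histone deacetylases HDAC1, HDAC2, HDAC3 and HDAC8 and the NCoR corepressor were examined in cultured mouse oocytes as a group of 8 genes, taken by name from the 26631 rows of the expression table. The group holds 4 deacetylase genes (Hdac1, Hdac2, Hdac3 and Hdac8) and 4 genes of the corepressor (Ncor1, Tbl1x, Tbl1xr1 and Gps2), and all 8 were found. HDACi 4b, the compound tested in the study, is a small molecule described there as an inhibitor of HDAC1 and HDAC3. The study gives it a preference for HDAC3, by a small margin over HDAC1 and by larger ones over HDAC2 and HDAC8. RNA of denuded oocytes, which are oocytes stripped of their cumulus cells, was sequenced after culture with HDACi 4b (2 libraries) or with the solvent DMSO (2 libraries). The study describes the sequenced oocytes of both groups as mature. Donor mice of both groups were wild type, of the C57BL/6 strain and 24 days old. By the study's methods, which call the assay single-cell RNA-seq, RNA was extracted from oocytes pooled by group. A number of oocytes per group is given there, but the number in each library is not. Nothing in the labels ties replicates to different mice or cultures. The p-values therefore reflect the spread of these libraries alone, which may be technical.

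Histone deacetylases remove acetyl groups from lysines of histone tails, which generally favors closed chromatin and gene repression. Class I enzymes act within large complexes. HDAC1 and HDAC2 are close relatives that share the SIN3, NuRD, CoREST and MiDAC complexes, while HDAC3 is the enzyme of NCoR, whose scaffold NCOR1 activates it and whose subunits TBL1X, TBL1XR1 and GPS2 bind the scaffold. HDAC8 works without such a complex and is known for deacetylating the cohesin subunit SMC3. A grown oocyte depends on a stock of stored transcripts, and HDAC2 is known from mouse knockouts as a main deacetylase of the growing oocyte.

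Libraries held 13478189 to 14903547 reads, as recovered from the deposited RPKM (reads normalized to exon length and library size), and 9015 to 10027 genes reached 1 RPKM. The cell type label was checked against markers, because the extraction protocol mentions whole ovaries. The 10 oocyte markers summed to 13140 and 13439 RPKM in the HDACi 4b libraries and to 14678 and 12217 RPKM in the DMSO libraries, with Btg4 and Zp3 the most abundant. The 14 measured granulosa and cumulus markers summed to 8.02 to 9.96 RPKM, 11 of them staying under 1 RPKM in every library, and Cyp19a1 and Nr5a2 were the highest. All 8 theca and stroma markers were under 1 RPKM, with Dcn and Star the highest. The 9 measured macrophage, blood and endothelial markers summed to 49.4 and 12.8 RPKM with HDACi 4b and to 29.5 and 17.7 RPKM with DMSO, led by Lyz2 and Csf1r. No marker was at 0 in all 4 libraries. In bulk RNA, fewer cells of a type and less RNA per cell cannot be told apart.

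Hdac2 was by far the most abundant of the 8 transcripts, and the genes of both named targets of the inhibitor, Hdac1 and Hdac3, were among the least. In the order of mean RPKM over the 4 libraries, Hdac2 (27.6 RPKM) was followed by Ncor1 (5.69), Tbl1xr1 (3.49), Hdac8 (2.69), Gps2 (2.06), Hdac1 (0.963), Hdac3 (0.423) and Tbl1x (0.170). This order was the same within each of the 4 libraries. Tbl1xr1 and Hdac8 did not differ beyond their spread, since the lowest value of Tbl1xr1 (2.94 RPKM) lay under the highest of Hdac8 (3.07 RPKM). Hdac3 and Tbl1x overlapped too. The other 5 pairs of neighbours had separate ranges, although the gap between the lowest Hdac1 value (0.636 RPKM) and the highest Hdac3 value (0.608 RPKM) was narrow. Among all rows of the table, 93.7% lay below the mean of Hdac2 and 54.4% below that of Hdac3.

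**Figure D1:**
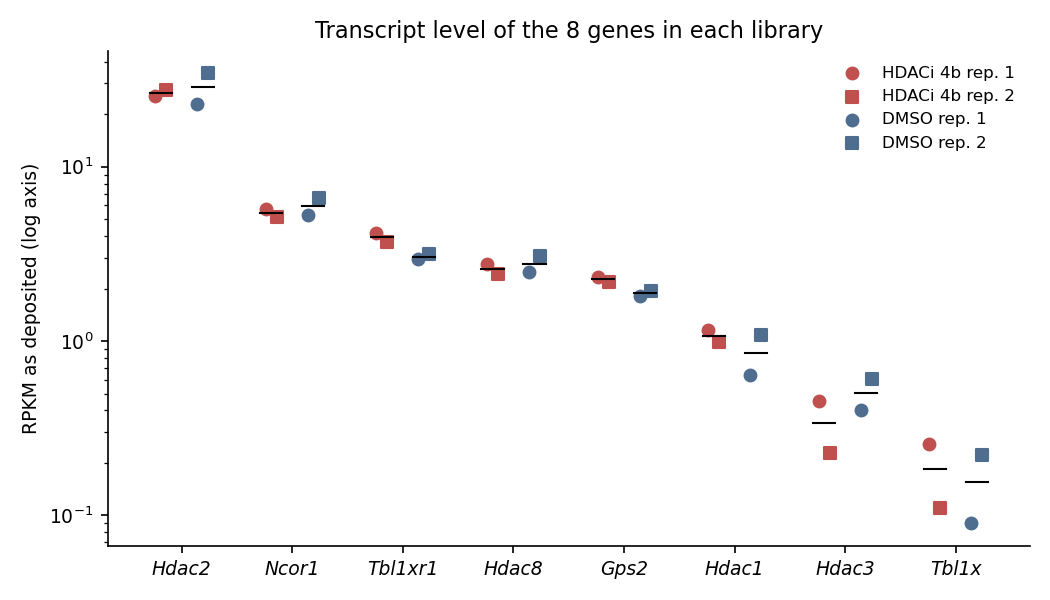
Level of the 8 genes in each of the 4 libraries, in RPKM as deposited on a log axis, with HDACi 4b in red left of DMSO in blue. Horizontal lines are group means (n = 2). Hdac2 stands apart at 22.9 to 34.3 RPKM, while Hdac3 and Tbl1x lie under 1 RPKM in all libraries.

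The stretch of DNA before the start of 2 members is shown here, for Hdac2 as the most abundant gene of the group and for Tbl1xr1 as the gene with the smallest p in the comparison below. The table of RefSeq promoters used here (GRCm38.p6) matched 6 of the 8 genes. The sequences are the 250 bases before the start, at chr10:36974294-36974543 for Hdac2 and chr3:22076402-22076651 for Tbl1xr1, both on the plus strand, with the GC box (GGGCGG or, on the other strand, CCGCCC) in capitals.
Hdac2: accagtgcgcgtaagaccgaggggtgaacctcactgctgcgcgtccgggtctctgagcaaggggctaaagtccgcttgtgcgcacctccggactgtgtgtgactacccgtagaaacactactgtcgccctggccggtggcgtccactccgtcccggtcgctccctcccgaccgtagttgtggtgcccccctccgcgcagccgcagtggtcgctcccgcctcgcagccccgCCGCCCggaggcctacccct
Tbl1xr1: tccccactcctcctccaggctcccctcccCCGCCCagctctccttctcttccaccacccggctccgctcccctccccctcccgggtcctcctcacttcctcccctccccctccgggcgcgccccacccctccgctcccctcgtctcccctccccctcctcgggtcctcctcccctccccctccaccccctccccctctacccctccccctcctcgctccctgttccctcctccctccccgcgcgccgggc
Each holds 1 GC box, which 32.7% of the 32841 promoters of this length also hold. Hdac2 has 27 CpG dinucleotides and Tbl1xr1 has 15, against a median of 6 over these promoters. The CCAAT box (CCAAT, in 33.9% of promoters), the E-box CACGTG (6.02%) and TATAAA (12.4%), searched on both strands, did not occur in either stretch. These matches describe the letters and show no binding.

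Hdac2 (chromosome 10, 36974544 to 37001889 on GRCm38) made up most of the class I deacetylase transcripts in every library. Its level was 25.5 and 27.5 RPKM with HDACi 4b and 22.9 and 34.3 RPKM with DMSO, so both treated values lay between the controls. The groups averaged 26.5 ± 1.42 and 28.6 ± 8.07 RPKM (mean ± SD, n = 2 each, HDACi 4b and DMSO). Hdac2 held 85.4% and 88.3% of the summed RPKM of the 4 deacetylases with HDACi 4b, against 86.7% and 87.8% with DMSO. The sum itself was 29.9 and 31.1 RPKM with HDACi 4b and 26.4 and 39.1 RPKM with DMSO. The spread between the DMSO libraries was thus larger than the difference between the groups, for Hdac2 as for the sum. Counting error was small here, since Hdac2 had 1450 to 2070 reads per library, and the exact Poisson 95% intervals of the 2 DMSO libraries (21.8 to 24.1 and 32.9 to 35.8 RPKM) did not overlap. Scaling of the libraries by a trimmed mean of ratios, as used for the fits, brought DMSO replicates 1 and 2 to 24.9 and 30.0 RPKM.

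**Figure D2:**
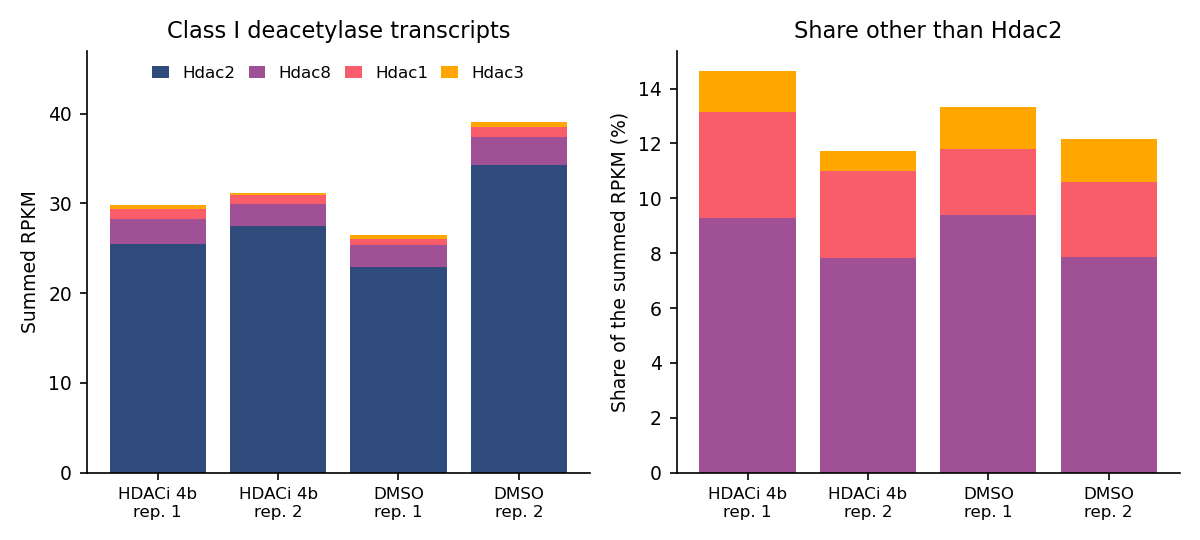
Left, summed RPKM of the class I deacetylases in each library, stacked by gene. Right, shares of that sum held by Hdac8, Hdac1 and Hdac3 in percent. Hdac2 held 85.4% to 88.3% of the sum, and Hdac8 was the next in all 4 libraries.

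Hdac8 (chromosome X, 102284639 to 102505359) was the second deacetylase, at 2.77 and 2.43 RPKM with HDACi 4b and 2.48 and 3.07 RPKM with DMSO. The groups overlapped, and Hdac8 varied least of the 8 genes, with a highest value 1.26 times the lowest. Its share of the class I sum was 9.29% and 7.82% with HDACi 4b and 9.39% and 7.85% with DMSO. The noncoding gene Gm14858 overlaps Hdac8 on the opposite strand, and without a stated strand setting their reads cannot be told apart.

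Hdac1 (chromosome 4, 129516104 to 129542713), a target of the inhibitor, was near 1 RPKM. It stood at 1.15 and 0.989 RPKM with HDACi 4b (59 and 48 reads) and at 0.636 and 1.08 RPKM with DMSO (31 and 50 reads). DMSO replicate 1 was low, while DMSO replicate 2 lay between the treated libraries. The exact Poisson 95% interval of DMSO replicate 1 (0.432 to 0.903 RPKM) touched those of the other 3 libraries, of which HDACi 4b replicate 1 began at 0.875 RPKM. Hdac2 exceeded Hdac1 by 22.2 and 27.8 times with HDACi 4b and by 36.0 and 31.9 times with DMSO. The level of Hdac1 is uncertain for another reason. Of all 50-base words in its annotated transcripts, 35.5% also occur in transcripts of other genes. The processed pseudogene Gm10093 (chromosome 17, 78491582 to 78493025) holds 31.7%, AC125456.1 4.84% and Gm4864 4.41%, and a word can occur in several of them. How the authors placed reads that match Hdac1 and another gene is not given in the sources used here. Gm10093 itself had 9 and 1 reads with HDACi 4b and 5 and 12 reads with DMSO. Hdac1 and Gm10093 together had 68 and 49 reads against 36 and 62 reads. For Hdac2, Hdac3, Hdac8 and Tbl1x no such word was shared.

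Hdac3 (chromosome 18, 37935844 to 37955016), the enzyme of the NCoR complex and the deacetylase on which the study centers, had few reads in these oocytes. It was at 0.450 and 0.229 RPKM with HDACi 4b (27 and 13 reads) and at 0.404 and 0.608 RPKM with DMSO (23 and 33 reads). HDACi 4b replicate 2 was the lowest and HDACi 4b replicate 1 lay between the controls. The Poisson interval of HDACi 4b replicate 2 (0.122 to 0.392 RPKM) overlapped those of HDACi 4b replicate 1 (0.297 to 0.655) and DMSO replicate 1 (0.256 to 0.606) but ended below that of DMSO replicate 2 (0.419 to 0.854). The same library set the ratio of Hdac2 to Hdac3 apart. That ratio was 56.6 and 120.0 with HDACi 4b and 56.7 and 56.4 with DMSO. HDACi 4b replicate 2 also had the lowest sum of macrophage, blood and endothelial markers and HDACi 4b replicate 1 the highest. Of these markers, Lyz2, Csf1r, Cd68, Adgre1 and Ptprc were each highest in HDACi 4b replicate 1. Cd14 (1.15 and 1.04 RPKM against 1.98 and 2.50 RPKM) and Pecam1 were instead higher in both DMSO libraries. DMSO replicate 2, which had the most Hdac3, had a lower marker sum (17.7 RPKM) than DMSO replicate 1 (29.5 RPKM). The part of those cells in the Hdac3 reads was not tested.

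**Figure D3:**
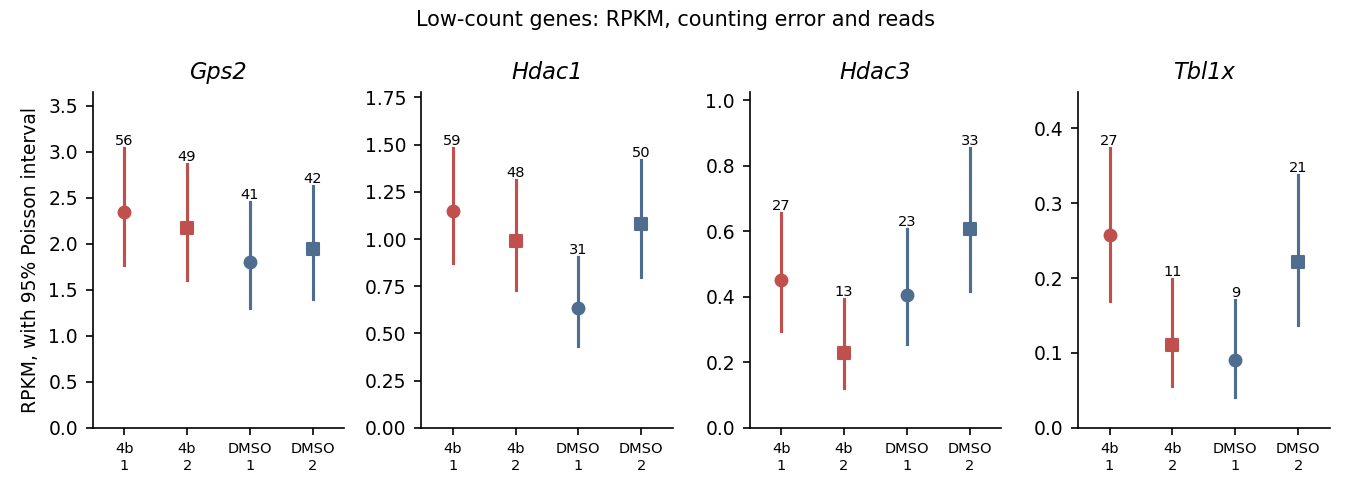
RPKM of Gps2, Hdac1, Hdac3 and Tbl1x in each library (4b is HDACi 4b), with exact Poisson 95% intervals as bars and the number of reads above each bar. The vertical axes start at 0 and differ between panels. Intervals of treated and control libraries overlap in every panel, apart from HDACi 4b replicate 2 against DMSO replicate 2 for Hdac3.

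Ncor1 (chromosome 11, 62316426 to 62458541), the scaffold that binds and activates HDAC3, was the leading transcript of the corepressor. It was at 5.71 and 5.12 RPKM with HDACi 4b and 5.29 and 6.65 RPKM with DMSO, on 925 to 1148 reads. The groups overlapped, with DMSO replicate 2 the highest. Ncor1 exceeded Hdac3 in every library, 12.7 and 22.4 times with HDACi 4b and 13.1 and 10.9 times with DMSO. The ends of Ncor1 overlap the opposite-strand genes Pigl and Ttc19, whose reads could be mixed with its own.

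Among the subunits that bind the scaffold, the paralogs Tbl1xr1 and Tbl1x differed widely in level. TBL1X and TBL1XR1 are WD40 proteins known for recruiting the ubiquitin machinery that exchanges the corepressor for coactivators. Tbl1xr1 (chromosome 3, 22076652 to 22216594) was at 4.18 and 3.67 RPKM with HDACi 4b and at 2.94 and 3.17 RPKM with DMSO, on 370 to 554 reads. Both treated libraries lay above both controls. Tbl1x (chromosome X, 77511013 to 77662983) was at 0.257 and 0.111 RPKM with HDACi 4b (27 and 11 reads) and at 0.0902 and 0.221 RPKM with DMSO (9 and 21 reads), each group holding a high and a low library. Tbl1x varied the most of the 8 genes, with a highest value 2.85 times the lowest. Its transcript was 14.3 to 33.2 times lower than that of Tbl1xr1.

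Gps2 (chromosome 11, 69913888 to 69916591), a subunit known for restraining JNK signaling, was at 2.34 and 2.17 RPKM with HDACi 4b and at 1.81 and 1.94 RPKM with DMSO. Both treated libraries lay above both controls, as for Tbl1xr1. With 41 to 56 reads per library the Poisson intervals of all 4 libraries overlapped, for example 1.77 to 3.04 RPKM in HDACi 4b replicate 1 and 1.30 to 2.45 RPKM in DMSO replicate 1. The ratio of Tbl1xr1 to Gps2 was 1.78 and 1.70 with HDACi 4b and 1.63 and 1.63 with DMSO. The ratio of Ncor1 to Tbl1xr1 was 1.37 and 1.39 with HDACi 4b, against 1.80 and 2.10 with DMSO. Treated and control ranges were separate for both ratios, and also for Hdac2 to Hdac1 and Hdac1 to Hdac3. They overlapped for Hdac2 to Hdac3, Hdac2 to Hdac8, Ncor1 to Hdac3 and Tbl1xr1 to Tbl1x. How often ratios of gene pairs outside the group set the libraries apart was not counted. The 4 corepressor genes summed to 12.5 and 11.1 RPKM with HDACi 4b and to 10.1 and 12.0 RPKM with DMSO.

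The comparison of the groups asks whether the inhibitor changed the transcript levels of its own targets and of the complex in which HDAC3 works. Levels of RNA do not separate synthesis of a transcript from its decay. None of the members passed the test. limma was fitted on log2(RPKM + 0.1) over the 14822 genes whose mean reached 0.2 RPKM, which took in 7 members and left out Tbl1x. Of all genes tested, 0% were called at a Benjamini-Hochberg adjusted p under 0.05 in either direction, and 3.18% had an unadjusted p under 0.05. No member was in either set. limma-voom on the recovered reads called 0 genes too, and at an unadjusted p under 0.05 it found 140 genes higher and 170 lower. The log2 fold change was positive for 3 of the 7 members tested and negative for 4, with a median of -0.01 beside a median of -0.00052 over all genes tested.

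Tbl1xr1 had the smallest p of the members. Its fold was 1.34 with a 95% interval of 0.976 to 1.84 (log2 fold change 0.42, SE 0.19, unadjusted p = 0.0643, adjusted p = 1.0 in limma). It ranked 605 among the 14822 genes by p. On limma-voom the unadjusted p was 0.0398. Gps2 had a fold of 1.25 (0.882 to 1.78) and Hdac1 a fold of 1.32 (0.807 to 2.14). In RPKM as deposited, both treated libraries were above both controls for 2 of the 7 members, against 7.59% of all genes tested, and below both controls for 0 of 7, against 16.4%. After scaling Hdac1 joined them, giving 3 of 7 against 13.6%, and Ncor1 lay below both controls, 1 of 7 against 14.7%. With counts this small such shares do not set the members apart.

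Hdac2, Hdac8 and Ncor1 had fitted folds close to 1. Hdac2 had a fold of 0.994 (95% interval 0.733 to 1.35), Hdac8 a fold of 0.992 (0.721 to 1.37) and Ncor1 a fold of 0.962 (0.728 to 1.27). The whole interval lay within 2-fold for these 3 genes, Tbl1xr1 and Gps2, 5 of the 7 members, against 56.9% of all genes tested. The intervals of Tbl1xr1 and Gps2 passed 2-fold without HDACi 4b replicate 1, without HDACi 4b replicate 2 or without DMSO replicate 1. Without DMSO replicate 2 they stayed within it. The share of all genes within 2-fold was lower in each of these fits too. On limma-voom 4 of 7 members lay within 2-fold, against 56.1% of genes, the interval of Gps2 then passing it. For Hdac3 the fold was 0.743 with an interval of 0.348 to 1.58, which includes a loss of more than 2-fold. For Tbl1x, tested only without a filter on low values, the fold was 1.15 with an interval of 0.457 to 2.91. The adjusted p of every member was 1.0. With 2 against 2 libraries an exact permutation test cannot go below p = 0.333, and none was used.

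**Figure D4:**
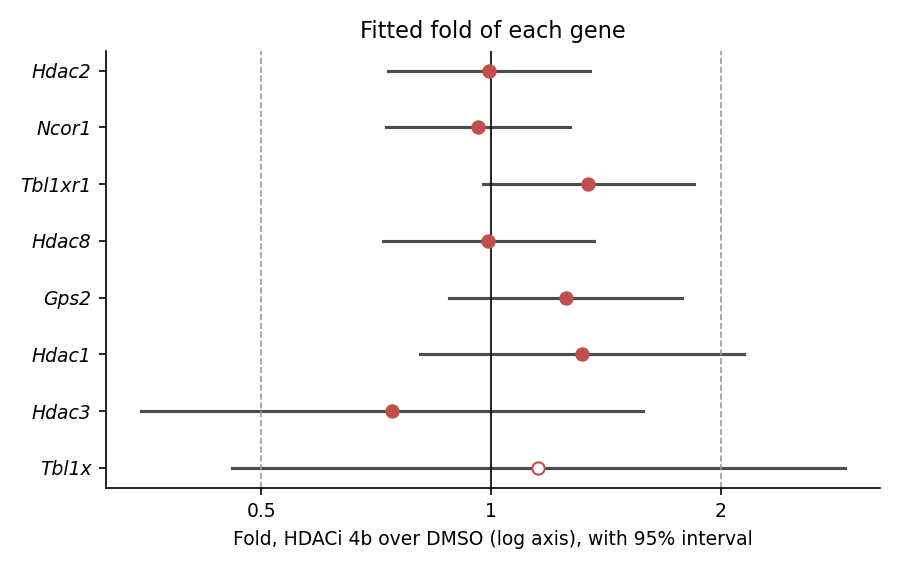
Fitted fold of each gene, HDACi 4b over DMSO, on a log axis with its 95% interval from limma. The dashed lines mark 2-fold in either direction, and the open circle marks Tbl1x, which was fitted without the filter on low values. The intervals of Hdac1, Hdac3 and Tbl1x cross a 2-fold line, and all 8 intervals include a fold of 1.

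Genes around these complexes also gave no call, which follows from the 0 calls among all 14822 genes tested. Inositol phosphates bind between class I deacetylases and their scaffolds and raise enzyme activity, and the kinases that make them were well represented. Ipmk was at 58.2 ± 5.85 RPKM with HDACi 4b and 57.8 ± 7.36 RPKM with DMSO, and Ippk at 20.9 ± 0.0908 and 22.1 ± 3.33 RPKM. Itpk1 had the smallest p of the 3 kinases tested (log2 fold change -0.10, SE 0.17). The other 3 measured kinases were under 1 RPKM in every library and not tested. All 3 tested kinases had more RPKM than any member but Hdac2, and Ipmk had more than Hdac2 too.

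MiDAC and MIER proteins are scaffolds of HDAC1 and HDAC2. Of 6 measured genes 4 entered the fit and 0 were called, with 3 of the 4 fold changes positive (median log2 0.18). Mier3 was the abundant one, at 21.8 and 15.2 RPKM with HDACi 4b and 15.6 and 14.1 RPKM with DMSO, followed by Mier2 at 1.41 ± 0.305 and 1.71 ± 0.195 RPKM. Mier3 also had the smallest p (log2 fold change 0.37, SE 0.23). In every library 3 of the 6 measured genes stayed under 1 RPKM, as did 15 of the 21 nuclear receptors and factors that recruit NCoR.

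Of those 21 recruiting factors 12 were tested, 6 in each direction, with a median log2 fold change of -0.08 and 0 called. Foxo1, a forkhead factor that the study examined as a partner of HDAC3 in granulosa cells, was the most abundant at 7.92 ± 0.516 RPKM with HDACi 4b and 8.31 ± 1.45 RPKM with DMSO. Nr1d1 (REV-ERBα), a clock repressor that works through NCOR1 and HDAC3, came next and had the smallest p. It was at 4.17 and 3.53 RPKM with HDACi 4b and 4.96 and 5.35 RPKM with DMSO, with both treated libraries below both controls and a fitted log2 difference of -0.34 (SE 0.18, adjusted p = 1.0 in limma).

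Protein kinase CK2 phosphorylates class I deacetylases and protein phosphatase 4 acts on HDAC3. All 8 measured subunits were tested, 4 in each direction (median 0.00), with 0 called. Csnk2b was at 12.8 ± 1.26 and 14.1 ± 2.19 RPKM with HDACi 4b and DMSO, and Ppp4r2 at 13.2 ± 1.91 and 13.5 ± 4.64 RPKM. The smallest p was that of Ppp4r1 (log2 fold change 0.39, SE 0.36). The 16 assembly and ubiquitin regulators include the TRiC chaperonin, which helps HDAC3 to fold, and the SIAH ligases and UBE2D enzymes that act on NCOR1. They were all tested, 5 positive and 11 negative (median -0.05), and 0 were called. Cct5 was at 336 ± 24.2 and 396 ± 19.2 RPKM and Ube2d3 at 81.6 ± 0.201 and 89.7 ± 7.91 RPKM, while Cct7 had the smallest p (log2 fold change -0.35, SE 0.18).

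**Figure D5:**
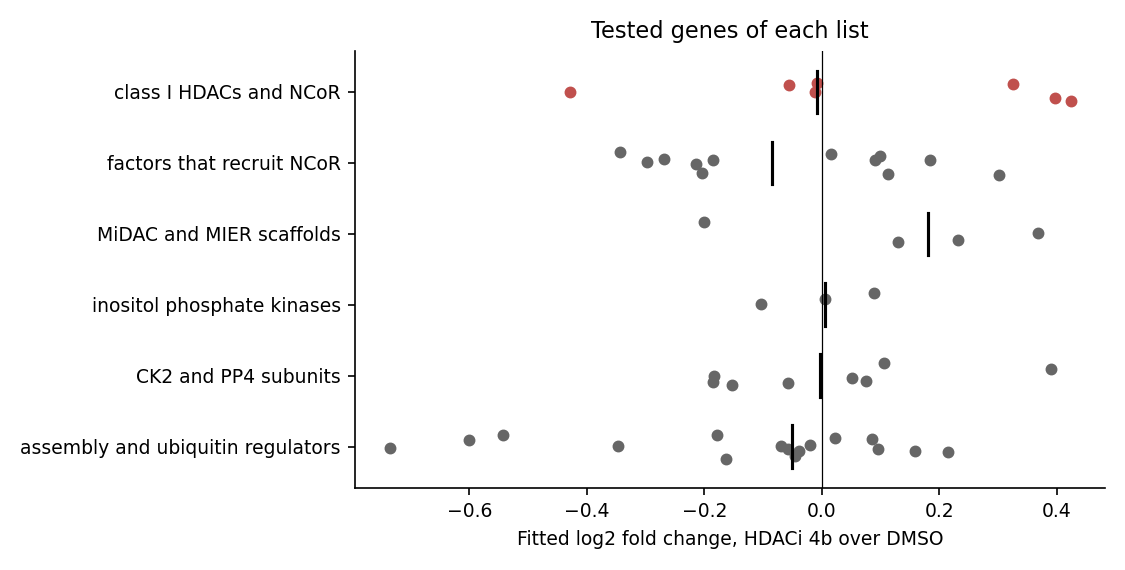
Fitted log2 fold change, HDACi 4b over DMSO, of each tested gene of the group and of 5 lists of partner genes. Each point is a gene, the black bars are list medians, and points are shifted vertically for legibility. The medians lie between -0.08 and 0.18, and no gene passed the test.

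The pattern of Hdac3 over the 4 libraries, scaled and on the log2 scale, was most like that of Pdk3, Gm28807 and Ppox (Pearson's r = 1.0 each), and that of Hdac1 was most like Zfp813-ps, Gm4997 and Chd9. As a description, over 4 libraries such a likeness is common: 438 of the 14822 genes had an r of at least 0.95 with Hdac3 and 330 with Hdac1. The name Zfp813-ps occurs more than once in the table.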

How the data were processed

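RNA of denuded oocytes was sequenced in 4 libraries, grouped by the titles of the samples. The authors deposited 1 table of RPKM values with 26631 rows and 1 column per library. Bowtie 0.12.2 and the build mm8 are named in the submitters' processing notes, while the counter, its annotation and its strand setting were not given in the sources used here. Coordinates and lengths are those of GENCODE M21 (GRCm38), matched by gene name, which matched 24967 rows.

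Whole reads were recovered from the RPKM values with a tolerance of 0.01 reads. The annotated exonic length gave whole reads for 22661 rows (85.1%). Those lengths are on GRCm38, although the notes name mm8, and which build the deposited values rest on was not resolved. The ratios between libraries gave whole reads for the other 3970 rows, Hdac3 among them, and there the smallest set of whole numbers was taken. For scale, 3 reads equal 0.201 to 0.223 CPM in libraries of 13478189 to 14903547 reads, and lower counts occur in the data. Poisson intervals hold counting error alone, because reads copied by PCR are not separate molecules. Rows with repeated names (28) or names turned into dates (26) stayed in the fits.

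Levels are as deposited. Before fitting, the libraries were scaled by 1.01 and 0.941 (HDACi 4b replicates 1 and 2) and 0.922 and 1.14 (DMSO), a mean of log ratios with 30% of ratios and 5% of levels trimmed at each end. limma 3.58.1 in R 4.3.3 was run on log2(RPKM + 0.1) with an intensity trend, two-sided, with 5.87 degrees of freedom and Benjamini-Hochberg adjustment over all 14822 genes. The pseudocount makes folds of low genes too small. The filter of 0.2 RPKM was set so that Hdac1 and Hdac3 would be tested. The fit was tested on simulated data with known changes, where it called few of the smaller ones.

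The members and lists, the test and the filter were chosen with earlier results of these data known. Named were the 8 members, all genes of lists with 5 or fewer measured, otherwise the 2 most abundant and the one with the smallest p, the 2 most abundant markers, and the 3 genes most like Hdac3 and Hdac1. Genes that overlap a member or share sequence with it were named after their values were seen. Some listed items are not reported here. Alternatives were other scalings, pseudocounts and filters, no trend, a replicate block, limma-voom, and leaving out each library.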

Additional observations from a re-analysis of the deposited data

How the results depend on the processing

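No member was called under any of the 14 alternatives run, and no gene of the table either, so the count of calls stayed at 0. Of 96 member fold changes under alternatives, 93 kept their sign and side of the threshold. Leaving out 1 library gave Hdac2 log2 fold changes of -0.15 to 0.13 and Hdac8 -0.053 to 0.029. Hdac2 turned positive, at 0.10 without HDACi 4b replicate 1 and 0.13 without DMSO replicate 2, as did Hdac8, at 0.029 without HDACi 4b replicate 2. In these fits the lone library of a group is assumed to vary like the others. At an unadjusted p under 0.05, RPKM without scaling gave 131 genes higher and 221 lower, against 232 and 239 with scaling. With a pseudocount of 1 the interval lay within 2-fold for 7 of 7 members and 91.9% of genes. For Hdac3 the values ran from -0.76 to -0.10 and for Hdac1 from 0.19 to 0.60 (lowest adjusted p = 0.881 and 0.902 in limma). Tbl1xr1 ran from 0.33 to 0.52, with unadjusted p values of 0.0398 to 0.225. The share of Hdac2 among class I deacetylases was 87.0% by RPKM and 87.2% by reads. By reads without length, Hdac1 and Gps2 were tied, with 188 reads each over the 4 libraries.

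The replicate number as a block left 0 genes called and the log2 fold change of Tbl1xr1 at 0.42 (unadjusted p = 0.0721). Deviations of same-numbered libraries from their group means correlated with r = 0.05 over 9461 genes. With 2 libraries per group this single value cannot show whether same-numbered libraries share a culture or batch, and the labels do not say. Adding the reads of Gm10093 to Hdac1 was chosen after seeing the data and left 0 calls, with a log2 fold change of 0.27 for Hdac1 (unadjusted p = 0.401). With 13 to 59 reads per library for Hdac3 and Hdac1 and 9 to 27 for Tbl1x, depth limits what their comparisons can show.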
